A study of Caenorhabditis elegans with 4 samples.

Results

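The genes zfp-1, let-526 and egl-27 of Caenorhabditis elegans each had, within the gene or 2 kb either side, 3 or 4 of the peaks that passed the authors' threshold when DNA recovered with the Y-box protein CEY-2 was mapped by chromatin immunoprecipitation and sequencing (ChIP-seq). The genes were chosen from these peaks, so their peak number, place, signal, rank and recurrence are descriptions and were not tested. A peak was assigned to a gene where its summit, the single base at which the caller placed the peak's maximum, lay within the gene or 2 kb either side. In all, 11 of the 611 peaks of the authors' thresholded list were assigned to the 3 genes, 4 to zfp-1, 4 to let-526 and 3 to egl-27. Of the 3 counted for egl-27 only 1 lay inside that gene, and the other two lay downstream in the next gene, tbc-6. The worms were L4 hermaphrodites of strain OP358, genotype unc-119(tm4063) III; wgIs358, in which CEY-2 with GFP-FLAG at its C terminus is made from a stably integrated transgene. Anti-GFP antibody was used on sonicated chromatin from whole worms, so the values are sums over all tissues, and the endogenous protein was not assayed. The 4 libraries came from 3 biological replicates of this 1 group; replicate 2 was sequenced as 2 technical libraries, which the authors joined into 1 alignment.

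CEY-2 has a cold shock domain and its family is known mainly for binding RNA in the germline. All 3 genes encode chromatin regulators. ZFP-1 is the homolog of mammalian AF10 and works with the H3K79 methyltransferase DOT-1.1. LET-526 is an ARID subunit of SWI/SNF nucleosome remodelling complexes. EGL-27 resembles the MTA subunits of the NuRD deacetylase complex. The genes are long and have several annotated transcript starts, some of them deep inside the gene, so a peak in an intron can lie upstream of a shorter transcript.

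The sequence under 5 of the peaks is shown because these peaks lie inside introns of zfp-1, egl-27 or, for egl-27 peak 3, the next gene, hold the words described below and include the highest peak of zfp-1 and of egl-27. Each is RefSeq sequence of the plus strand of build ce11 (WBcel235), 100 bp either side of the summit. Capitals mark 3 words on either strand. They are the repeat GAGAGA, which reads TCTCTC where it lies on the minus strand, the palindromic E-box CACGTG, and the GATA-type word TGATAA, which reads TTATCA where it lies on the minus strand. None of the 3 words lies within another of them, but copies of GAGAGA can overlap each other. The zfp-1 sequences are chrIII:8795807-8796007 (peak 2), chrIII:8797321-8797521 (peak 3) and chrIII:8802107-8802307 (peak 4), and those at egl-27 are chrII:6842768-6842968 (peak 1) and chrII:6849466-6849666 (peak 3).
zfp-1 peak 2: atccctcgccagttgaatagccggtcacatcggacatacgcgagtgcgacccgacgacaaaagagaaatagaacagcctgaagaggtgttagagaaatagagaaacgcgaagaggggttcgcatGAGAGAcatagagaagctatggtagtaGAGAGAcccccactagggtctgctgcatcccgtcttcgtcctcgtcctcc
zfp-1 peak 3: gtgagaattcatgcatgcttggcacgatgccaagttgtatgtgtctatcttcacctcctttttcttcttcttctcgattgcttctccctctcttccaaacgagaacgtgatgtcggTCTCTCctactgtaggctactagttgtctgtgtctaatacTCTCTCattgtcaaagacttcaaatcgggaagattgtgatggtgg
zfp-1 peak 4: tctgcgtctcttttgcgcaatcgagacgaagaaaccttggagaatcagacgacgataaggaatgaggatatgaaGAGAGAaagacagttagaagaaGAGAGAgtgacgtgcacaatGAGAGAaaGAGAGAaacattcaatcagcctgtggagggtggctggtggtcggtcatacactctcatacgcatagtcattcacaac
egl-27 peak 1: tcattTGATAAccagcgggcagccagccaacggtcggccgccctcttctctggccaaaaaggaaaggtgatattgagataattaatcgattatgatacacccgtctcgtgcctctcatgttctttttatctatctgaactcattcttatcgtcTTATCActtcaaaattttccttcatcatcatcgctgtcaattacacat
egl-27 peak 3: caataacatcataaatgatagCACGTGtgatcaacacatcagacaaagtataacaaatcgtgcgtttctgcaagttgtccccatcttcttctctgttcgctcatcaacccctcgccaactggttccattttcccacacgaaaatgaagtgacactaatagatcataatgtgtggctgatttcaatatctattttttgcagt
The zfp-1 peaks show short purine-rich runs, on the plus strand at peaks 2 and 4 and on the minus strand at peak 3. The egl-27 sequences shown hold no GAGAGA, with TGATAA at peak 1 and CACGTG at peak 3. Peak 2 of egl-27, not shown, holds 4 copies of GAGAGA.

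The authors' 5 lists were compared. Each replicate had its own list, a pooled list was called from all replicates, and a thresholded list is named by the authors for the irreproducible discovery rate (IDR), a measure of how well ranks recur between replicates. Each peak has a signal value, the caller's own measure of enrichment over a control that was not analysed here, which can be compared only within 1 list. Rank 1 is the peak of highest signal. The IDR list held 611 peaks, which were exactly the 611 highest of the pooled list, so a peak's own ranks in the replicates did not decide whether it was in it. Of these peaks 586 were nuclear, and the signal ran from 35.9 to 2297 with a median of 45.7. The pooled list held 25484 peaks, and those of replicates 1, 2 and 3 held 30000, 30000 and 21628. The 3 replicate lists reach far into weak peaks, and no list gives read counts, so the depth and the counting error of a peak are unknown.

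The number of summits at the 3 genes was above the genome average in every list. The IDR list had 11 summits in the 56.2 kb of the windows, or 1.96 per 10 kb, against 0.0584 per 10 kb over the nuclear genome. The pooled list had 16 at zfp-1, 12 at let-526 and 14 at egl-27, together 7.47 per 10 kb against 2.54. Replicate 1 had 15, 12 and 12, or 6.94 per 10 kb against 2.99. Replicate 2 had 16, 15 and 15, or 8.18 against 2.99. Replicate 3 had 8, 11 and 15, or 6.05 against 2.15. The order of the 3 genes was therefore not the same in each replicate: zfp-1 had the most summits in replicates 1 and 2 and the fewest in replicate 3. The best rank at the genes was 32 in the IDR, pooled and replicate 1 lists, 27 in replicate 2 and 25 in replicate 3. Among the 611 highest peaks of each list, the genes held 6 in replicate 1, 10 in replicate 2 and 9 in replicate 3.

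Few genes had as many. Of 19973 nuclear protein-coding genes, 736 (3.68%) had at least 1 IDR summit within 2 kb, and 11 (0.0551%) had at least 3. Among the 800 genes that span 10 to 20 kb, as the 3 genes do, 53 (6.62%) had at least 1 and 6 (0.75%) had at least 3. The 3 genes are in these counts, and since the rule chose genes from these peaks nothing is read from the shares. One summit was assigned to 669 genes, 2 to 56, 3 to 7, 4 to 3 and 5 to 1. Genes that overlap or lie near each other can share summits.

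**Figure D1:**
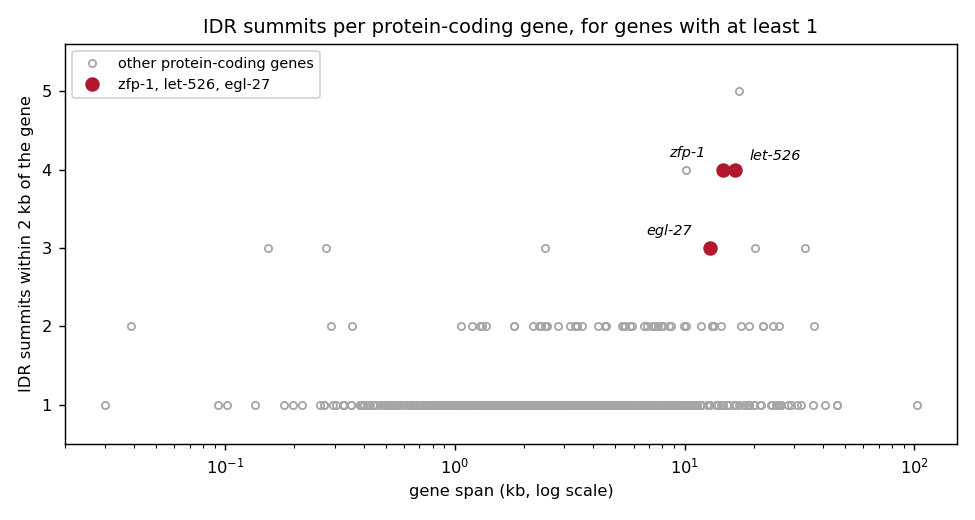
IDR summits within 2 kb of each protein-coding gene (y axis, count) against the span of the gene (x axis, kb, log scale), for the 736 genes with at least 1 summit. Each point is a gene, and the red points are zfp-1 and let-526 with 4 summits each and egl-27 with 3; 1 other gene has 5.

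The genes most like them by this count were pkg-2, ifbp-1, pqn-41, T09F3.2, T09F3.7 and T28B11.1, ordered by number of IDR summits and then by summed signal. The cGMP-dependent protein kinase gene pkg-2 had 5 summits, all in its introns, with a summed signal of 463 and a highest value of 157. The gene ifbp-1 had 4, of which 3 were in introns, with a summed signal of 176. zfp-1 lay between them with 4 summits and a summed signal of 217, and let-526 had 188. The gene pqn-41, which encodes a glutamine-rich protein, had 3, all intronic, summing to 213, next to 215 for the 3 of egl-27. T28B11.1 also had 3 in introns, summing to 167. The neighbours T09F3.2 and T09F3.7 shared the same 3 summits, and none of these lay inside either gene. Clusters within introns were thus seen at other long genes as well. The kinase gene mnk-1, with 3 summits summing to 142, followed these, and F48C1.3, a 274 bp gene within let-526, shares 3 summits with its host.

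The gene zfp-1 spans 14771 bp on the plus strand of chromosome III (8791535 to 8806305) and has 11 annotated transcripts with 10 distinct starts. Its 4 IDR peaks all lay in its 2 longest introns. Peak 1 (8794708 to 8795097, summit 8794903) had a signal of 40.1 and rank 441, peak 2 (8795712 to 8796101, summit 8795907) had 55.7 and rank 170, and peak 3 (8797226 to 8797615, summit 8797421) had 46.7 and rank 283. These 3 fell in 1 intron of 3573 bp, with 1004 and 1514 bp between neighbouring summits. Peak 4 (8802012 to 8802401, summit 8802207) was the highest of the gene, with a signal of 75.0 and rank 68, and lay 4786 bp farther on in an intron of 3173 bp. None was at the first start of the gene: their summits were 3368, 4372, 5886 and 10672 bp downstream of it.

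Measured against internal starts, the zfp-1 summits were closer. Peak 1 was 494 bp downstream of the start of transcript F54F2.2a.7, and peak 2 was 1498 bp downstream of that start. Peak 3 was 977 bp upstream of the start of F54F2.2a.1, and 81 bp upstream of the start of the noncoding RNA gene F54F2.13, which lies in the same intron on the other strand. Peak 4 was 612 bp upstream of the start of F54F2.2c.2, the last start of the gene. The 3 starts of F54F2.2a.1, F54F2.2c.1 and F54F2.2c.2 all lie downstream of the intron of 3573 bp. Another pooled peak in the same intron as peak 4 lay 613 bp downstream of the start of F54F2.2c.1, with a signal of 32.1 and rank 808, below the IDR threshold.

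**Figure D2:**
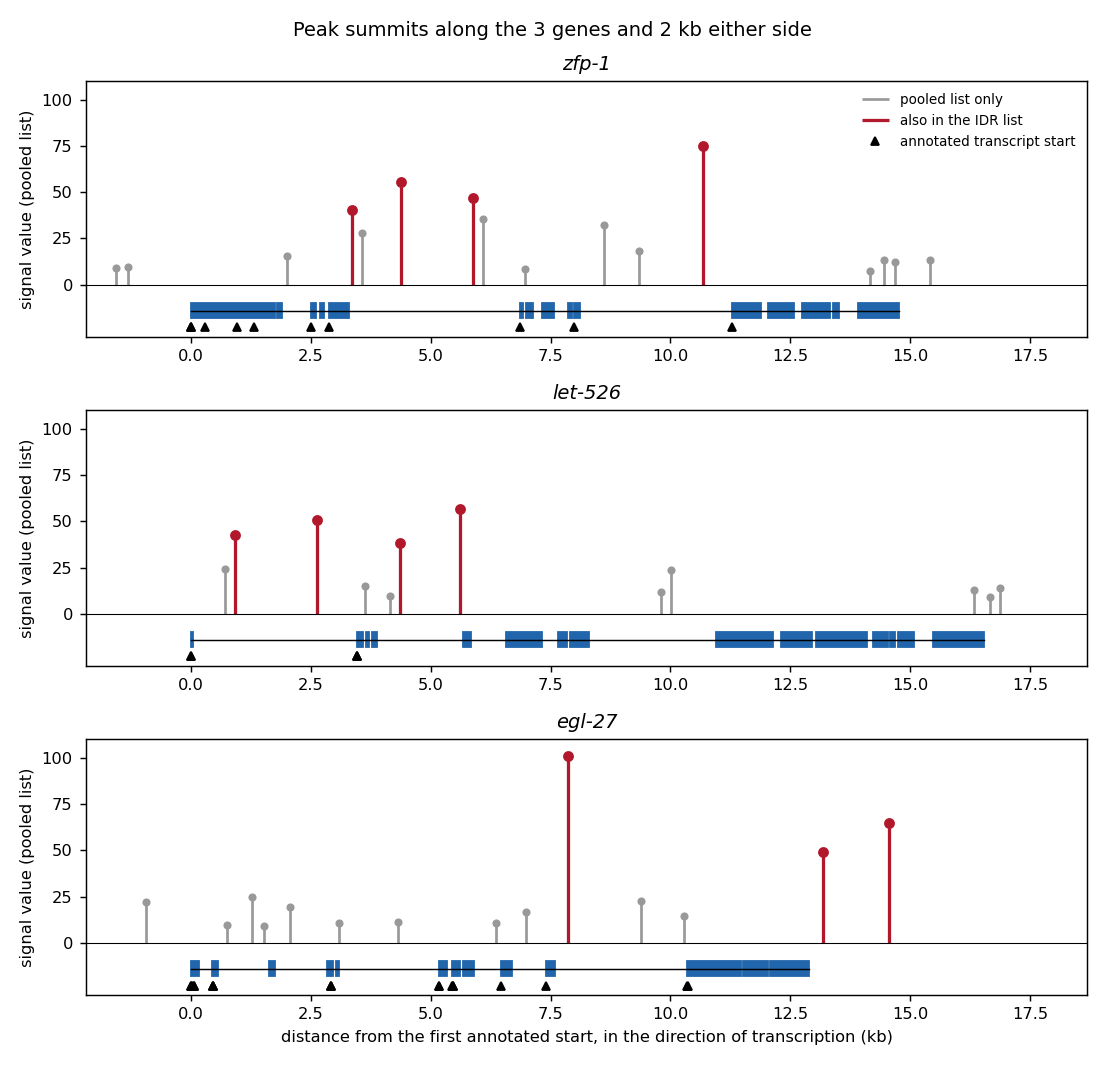
Signal value in the pooled list (y axis) of every pooled summit along zfp-1, let-526 and egl-27, by distance from the first annotated start in the direction of transcription (x axis, kb). Red stems are in the IDR list and grey stems in the pooled list alone, blue boxes are exons and triangles transcript starts; 9 red stems stand over introns, and 2 stand downstream of egl-27.

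The gene let-526 spans 16541 bp on the minus strand of chromosome I (5300852 to 5317392) and has 5 transcripts with 4 starts, 3 of which lie within 8 bp of each other inside the gene. Its 4 IDR summits lay in the first part of the gene, 1704, 1745 and 1246 bp apart. Peak 1 (5316281 to 5316670, summit 5316476) had a signal of 42.4 and rank 370, and peak 2 (5314577 to 5314966, summit 5314772) had 50.7 and rank 216. Both were in the first intron of 3409 bp, 916 and 2620 bp downstream of the first start, and peak 2 was 842 bp upstream of the start of transcript C01G8.9a.2. Peak 3 (5312832 to 5313221, summit 5313027) had 38.0 and rank 515, the lowest signal of the 11. Peak 4 (5311586 to 5311975, summit 5311781) had 56.6 and rank 162, the highest of this gene. Peaks 3 and 4 shared an intron of 1793 bp, 895 and 2141 bp downstream of the start of C01G8.9c.1. The pair before the internal starts and the pair after them were thus in 2 separate introns.

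Other genes are nested in this region. Peak 1 lay within F48C1.15, an antisense RNA gene, and was 426 bp from the start of F48C1.13. Peak 2 was 439 bp from the start of F48C1.3, and peak 4 was 222 bp from the start of the noncoding RNA gene F48C1.12. Peak lists carry no strand, so a summit cannot be assigned to let-526 rather than to a gene within it.

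The gene egl-27 spans 12901 bp on the plus strand of chromosome II (6835008 to 6847908) and has 24 transcripts with 14 starts. It differed from the other two in that only 1 of its 3 IDR summits lay inside it. Peak 1 (6842673 to 6843062, summit 6842868) was the highest of all 11, with a signal of 101 and rank 32. It lay in the longest intron, of 2754 bp, 7860 bp downstream of the first start and 464 bp downstream of the start of transcript C04A2.3c.6. The snoRNA gene C04A2.16 is hosted in the same intron, and its start is 372 bp downstream of the summit, outside the peak interval.

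Peaks 2 and 3 of egl-27 belonged by position to the next gene. That gene is tbc-6 (6848124 to 6851534, plus strand), which encodes a protein with a TBC domain, as found in GTPase-activating proteins for Rab, and begins 215 bp after egl-27 ends. Peak 2 (6848004 to 6848393, summit 6848199) had a signal of 49.0 and rank 249, and its summit was 291 bp past the end of egl-27 and 75 bp into the 5′ UTR of tbc-6. Peak 3 (6849371 to 6849760, summit 6849566) had 64.7 and rank 97, and was 1658 bp past egl-27 in an intron of tbc-6 of 1255 bp, 1442 bp from the start of tbc-6. Peak 2 of egl-27 and peak 3 of zfp-1 were the only ones of the 11 whose nearest gene start was within 100 bp, and of these 2 genes only tbc-6 is protein-coding.

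Distances to the next IDR peaks differed between the genes. The next IDR summits outside the windows were 41805 bp to the left of zfp-1 and 61277 bp to its right, and 275258 and 765419 bp from let-526. At egl-27 they were 7428 bp to the left and 103641 bp to the right. The clusters at zfp-1 and let-526 therefore had no other IDR summit nearer than 41805 bp on either side. The nuclear genome had 5.84 IDR summits per Mb, so gaps like those at zfp-1 are not unusual.

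In the 3 genes 9 of the 11 IDR summits were in introns, none was in an exon of its gene and none was within 2 kb upstream of it. The place is that of the summit alone: the intervals of zfp-1 peak 1 and let-526 peak 4 ran past the intron edge into an exon. In the pooled list, 30 of the 42 summits were in introns, 4 in 3′ UTRs, 5 downstream and 3 upstream. Of all 25458 nuclear pooled summits, 2746, 3518 and 2482 were in introns of the same 3 length classes, from longest to shortest. No pooled summit was in a coding exon, where replicate 1 had 1, replicate 2 had 3 and replicate 3 had 2. The weak pooled peaks thus reached the 3′ ends of zfp-1 and let-526, where the IDR list had none.

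The intronic peaks were in a few long introns. The 3 genes have 40 introns, counted as gaps between the merged exons of all transcripts, of which 27 are under 500 bp. The 6 introns of 2 kb or more, 17644 bp or 39.9% of the gene spans, held 7 of the 9 IDR summits, or 3.97 per 10 kb, and 18 of the 34 pooled summits inside the genes, or 10.2 per 10 kb. All 9 IDR summits were in 5 introns of 1793 to 3573 bp. These were the longest and next longest of zfp-1, the longest of let-526 and another of 1793 bp and the longest of egl-27. Not every long intron had an IDR summit: an intron of 2641 bp in let-526 and one of 2094 bp in egl-27 had none, with 2 pooled summits each.

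Over all protein-coding genes, IDR summits per length of intron were also highest in long introns. Introns of 2000 bp or more held 9.92 IDR summits per Mb (99 summits in 9.98 Mb), those from 500 to under 2000 bp held 3.57 (51 in 14.3 Mb) and those under 500 bp held 1.87 (19 in 10.2 Mb). The nuclear genome as a whole had 5.84 per Mb. The pooled list was flatter, with 275, 246 and 244 per Mb in the same order and 254 over the genome. An IDR summit was found in 3.22% of the 2488 longest introns, 0.307% of the middle class and 0.0220% of the short ones. The zfp-1, let-526 and egl-27 summits are part of these counts.

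**Figure D3:**
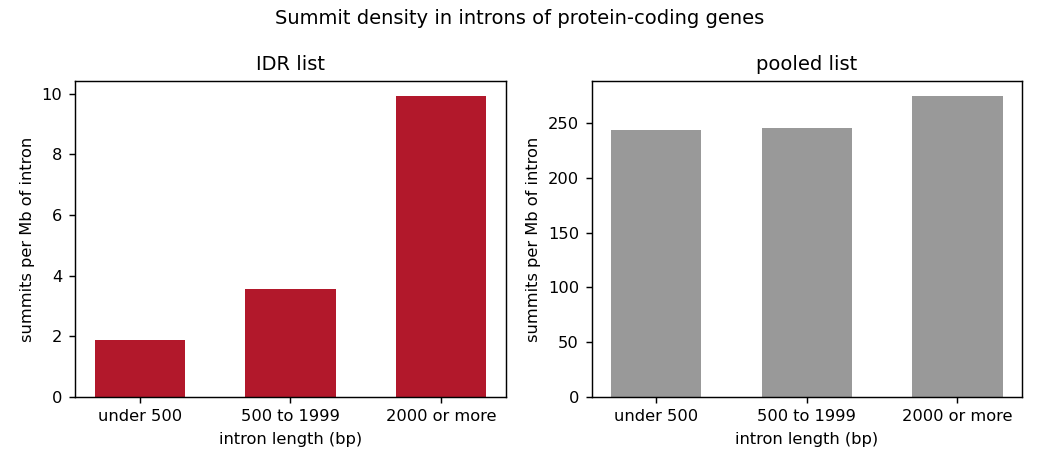
Summits per Mb of intron (y axis, from 0) by intron length class (x axis, bp), over all protein-coding genes, in the IDR list (left) and the pooled list (right). The bars rise from 1.87 to 9.92 per Mb in the IDR list and from 244 to 275 per Mb in the pooled list; the lists have no replicate error for these counts.

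Of the 28 distinct annotated starts of the 3 genes, 12 had a pooled summit within 500 bp (42.9%, against 31% of all 29784 starts of protein-coding genes). An IDR summit was within 500 bp of 2 of them (7.14%, against 1.07%), the start of F54F2.2a.7 in zfp-1 and that of C04A2.3c.6 in egl-27. This count depends on the distance: no start had an IDR summit within 250 bp, and 9 had one within 1000 bp (32.1%, against 1.77%). Counted by summit, 7 of the 11 lay within 1000 bp of a start of the gene they were assigned to. Starts of other genes were not counted, such as that of tbc-6, 75 bp from egl-27 peak 2, or F48C1.12, 222 bp from let-526 peak 4. The same count by summit was not made for the other IDR peaks, so nothing is read from it. No pooled summit was within 500 bp of the first start of any of the 3 genes. The nearest was 1309 bp upstream at zfp-1 (signal 9.53, rank 16645), 715 bp downstream at let-526 (24.1, rank 1717) and 756 bp downstream at egl-27 (9.67, rank 16141). In the replicate lists, 2 weak summits were within 500 bp of a first start, 470 bp upstream of let-526 in replicate 1 (rank 15390) and 162 bp downstream of the egl-27 start in replicate 2 (rank 20395). The 3 internal starts of let-526 had a pooled summit 157 to 165 bp downstream of them, with a signal of 15.3 and rank 5278.

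The 11 peaks did not recur equally. A summit of each replicate list was sought within 200 bp of each IDR summit, and 9 of the 11 (81.8%) had one in all 3 replicates, against 516 of the other 575 nuclear IDR peaks (89.7%). All 11 were among the 611 highest peaks of at least 1 replicate, as were 93.4% of the others. In all 3 replicates at once this held for 4 (36.4%), against 19.5% of the others. By replicate, 5 were among the highest in replicate 1, 9 in replicate 2 and 7 in replicate 3, where the shares of the other peaks were 49.4%, 67.3% and 52%. The pooled list was made from the same replicates, so these counts are a description.

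Of the 4 peaks that were high in every replicate, peak 1 of egl-27 was the steadiest. Its ranks were 32, 27 and 36 in replicates 1, 2 and 3, with signals of 39.1, 64.9 and 25.3. Peak 2 of zfp-1 had ranks of 281, 146 and 179, and signals of 19.0, 29.3 and 14.2. Peak 2 of let-526 had ranks of 324, 284 and 181, and signals of 18.2, 24.0 and 14.2. For these 3 the highest and the lowest rank differed by less than 2-fold. Peak 4 of zfp-1 was among the highest peaks of each list too, but its ranks of 301, 172 and 25 were more spread, and its signals were 18.6, 28.1 and 30.3.

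The other peaks were high in some replicates and low in others. Peak 3 of let-526 had the widest spread, with rank 27272 in replicate 1 (signal 4.07), 1124 in replicate 2 (14.8) and 39 in replicate 3 (23.7). Peak 1 of let-526 was at 1408, 128 and 2788, with signals of 12.4, 30.4 and 5.76. Peak 4 of let-526 was at 1125, 169 and 421, with signals of 13.2, 28.2 and 10.9. Peaks 1 and 4 of this gene were thus highest in replicate 2, and peak 3 in replicate 3. Peak 2 of egl-27, at the start of tbc-6, was at 1044, 979 and 56 (13.4, 15.7 and 19.8), and peak 3 in tbc-6 was at 65, 151 and 2602 (30.5, 28.9 and 5.90). These neighbours in 1 gene had their lowest rank number in different replicates. Over the 11 peaks, the ranks differed by more than 10-fold for 7, and no single replicate was the low one for all.

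**Figure D4:**
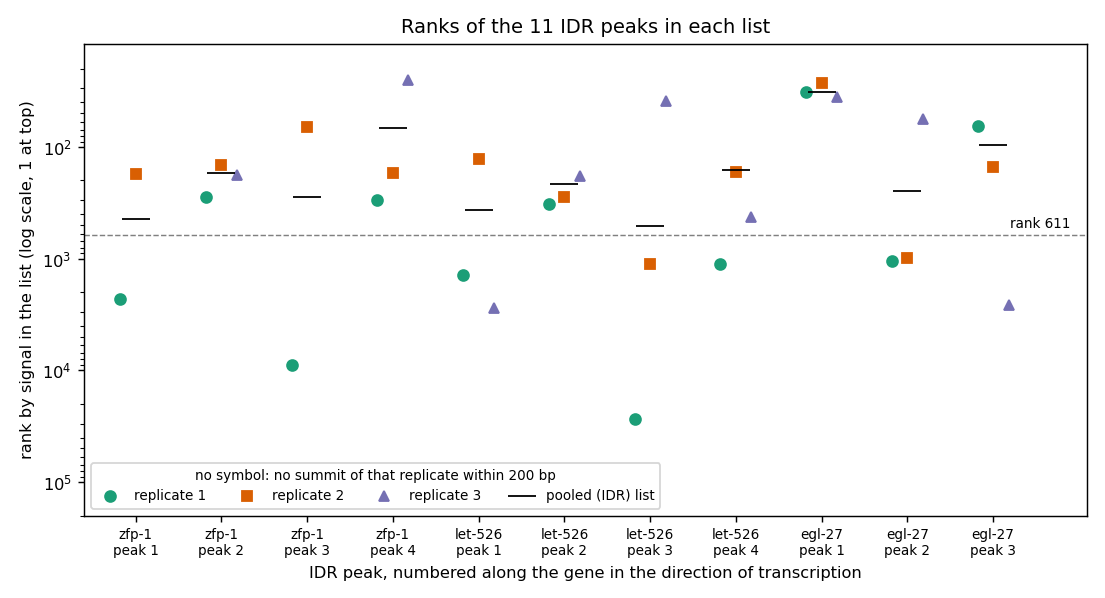
Rank by signal (y axis, log scale, rank 1 at the top) of each of the 11 IDR peaks (x axis) in the pooled list and in the 3 replicate lists; a missing symbol means no summit of that replicate within 200 bp. The dashed line is rank 611; 4 peaks have all 3 replicate symbols above it, and the let-526 peak 3 symbols run from rank 39 to rank 27272.

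Peaks 1 and 3 of zfp-1 had no summit of replicate 3 within 200 bp. Peak 1 had ranks of 2320 and 174 in replicates 1 and 2 (signals 10.8 and 28.1), and peak 3 had 8963 and 67 (7.15 and 37.3). In replicate 3 the nearest summits were 244 bp away at peak 1 (rank 4351, signal 4.92) and 273 bp away at peak 3 (rank 286, signal 12.4). Both zfp-1 peaks had a second pooled peak whose interval overlapped theirs, with its summit 202 bp from peak 1 (signal 28.2, rank 1159) and 203 bp from peak 3 (35.5, rank 630). At peak 1 the summits of replicates 1 and 3 were 39 and 42 bp from this second summit. The highest summit of replicate 2 was 20 bp from the IDR summit. At peak 3 the summits of replicates 1 and 3 were 12 and 70 bp from the second summit. The highest of replicate 2 was 38 bp from the IDR summit. At both places, then, the IDR summit was nearest to the highest summit of replicate 2. Replicate 2 also had a weaker summit nearer to the second one, at peak 1 (7.40, rank 6162) and at peak 3 (10.1, rank 2869). The summits of replicates 1 and 3 were 163 and 244 bp downstream of the IDR summit at peak 1, and 191 and 273 bp downstream at peak 3.

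Overlapping pairs of this kind were found at 4 of the 11 peaks and at 143 of the other 575 nuclear IDR peaks (24.9%). The remaining ones were at let-526. Where a replicate had more than 1 summit at such a place, distances are from its highest. Peak 1 of let-526 had a second summit 201 bp away (signal 24.1, rank 1717). The summits of replicates 2 and 3 lay between both, 110 and 104 bp from the IDR summit, with that of replicate 1 at 16 bp. Replicate 1 also had a weaker summit nearer to the second one (7.40, rank 8158). Peak 3 of let-526 had one 211 bp away (9.70, rank 16036). The highest summit of each replicate was closer to the IDR summit, at 85, 54 and 66 bp. Replicate 3 also had a summit nearer to the second one, at 5313181 (13.4, rank 221). A pooled count at these genes may therefore count some enriched places more than once.

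The second summit at zfp-1 peak 3 was also the highest pooled peak of the 3 genes outside the IDR list. Its signal of 35.5 was just below that of the lowest IDR peak of all (35.9, rank 611), and peak 3 of let-526, with 38.0, was the member just inside. Of the 42 pooled summits at the 3 genes, 31 were outside the IDR list, 12 at zfp-1, 8 at let-526 and 11 at egl-27. Their signal ran from 7.66 to 35.5 with a median of 13.4, and 8 of them were among the 2500 highest of the 25484 pooled peaks. Those 2500 include the 611 IDR peaks. The 8 include the second summits at zfp-1 peaks 1 and 3 and at let-526 peak 1, whose intervals overlap IDR peaks.

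The words were counted at the 11 IDR peaks of the 3 genes. GAGAGA was sought on either strand up to 100 bp from the summit and was found at 6 of the 11 peaks (54.5%), against 42.6% of the other 575 nuclear IDR peaks, 21.5% of 279 windows of 201 bp laid end to end over the 3 genes and their flanks, and 9.99% of such windows over the genome. All 4 zfp-1 peaks held it, with 1, 2, 2 and 4 copies, and 1 peak of let-526 (peak 3) and 1 of egl-27 (peak 2) did. Of the 14 copies at the 11 peaks, 9 were at zfp-1 and 4 at egl-27 peak 2. At zfp-1 peak 4 the copies began 26 and 4 bp before the summit and 16 and 24 bp after it. The windows over the genes differed less: the word was in 22.6% of 93 at zfp-1, 18.6% of 102 at let-526 and 23.8% of 84 at egl-27. Of the pooled summits outside the IDR list it was at 4 of 12 at zfp-1, 3 of 8 at let-526 and 7 of 11 at egl-27, together 14 of 31 (45.2%).

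CACGTG, an E-box, was at 2 peaks, peak 4 of let-526 and peak 3 of egl-27, or 18.2%, against 19.8% of the other IDR peaks and 3.33% of the genome's windows. None of the 31 weaker pooled summits at the 3 genes held it, and it was in 2.87% of the windows over these genes. With so few summits, nothing is read from its absence there. TGATAA, which holds the core bound by GATA factors, was at 3 peaks (27.3%), peak 2 of let-526 and peaks 1 and 2 of egl-27, against 41.6% of the others and 17.9% of the genome's windows. At zfp-1 none of the 4 peaks held either of these words. The shorter GATAA, which TGATAA contains, was at 5 peaks (45.5%), against 57% of the others and 37.7% of the genome. The AP-1 type word TGACTCA was at 0 of 11, against 1.39% of the others and 1.83% of the genome's windows. The splice-acceptor-like word TTTCAG was at 0 of 11, against 11.3% of the others and 35.8% of the genome's windows. The TATA-type word TATAAA was also at 0 of 11, against 18.1% and 21.2%. In all, 10 of the 11 peaks held at least 1 of the 3 words in capitals above, and peak 1 of let-526 held none. The same was true of 436 of the other 575 IDR peaks (75.8%), 39.4% of the windows over the 3 genes and 28.8% of those over the genome. A match is a description of the letters and not a site. The median GC content of the 11 windows was 44.3% (38.3 to 52.7%), against 39.8% (24.4 to 62.7%) for the others.

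Other chromatin regulators were looked up in the same way. Of a list of 85 chromatin regulators, 8 had an IDR summit within 2 kb, and without zfp-1, let-526 and egl-27 these were 5 of 82 (6.10%), beside 3.68% of all protein-coding genes. The listed genes are longer, with a median span of 4583 bp against 2027 bp, and a longer gene has a wider window, so nothing is read from the difference of these shares. None of the 5 had more than 1. For the ZFP-1 and DOT-1 group, zfp-1 was the only one of 7 with an IDR summit, and dot-1.1, which encodes its partner, had only 1 pooled peak at rank 22915. In SWI/SNF, let-526 and pbrm-1 of 13 had one, and in the NuRD and MEC group egl-27 and let-418 of 10. The groups of H3K4, acetylation, and DRM and synMuv genes had 1 each, of 10, 8 and 9. The histone deacetylases (6), other remodellers (7), H3K27 and H3K36 (7) and H3K9 and heterochromatin genes (8) had 0.

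Of these 5 peaks, 1 was placed as in zfp-1 and let-526. At pbrm-1, which encodes a polybromo subunit of SWI/SNF, the summit was in an intron 5061 bp from the gene start, with a signal of 38.1 and rank 511. It was also 170 bp upstream of the start of the noncoding RNA gene C26C6.12. At let-418, which encodes a Mi-2 helicase, it was past the 3′ end, 6158 bp from the start (59.6, rank 131). At cbp-1, the homolog of the acetyltransferases CBP and p300, it was 846 bp upstream (64.6, rank 99), and nearer to the noncoding RNA gene R10E11.10, at 554 bp. At set-16, which encodes an MLL-type H3K4 methyltransferase, it was 189 bp upstream (47.5, rank 269), and 157 bp from the start of drr-2. At lin-54, a DNA-binding subunit of the DRM complex, it was 332 bp upstream (46.6, rank 285) and only 61 bp from the start of the ribosomal protein gene rpl-12. The summits at the last 2 genes were thus near promoters shared with or closer to a neighbour.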

How the data were processed

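CEY-2 ChIP-seq peak lists in build ce11 (WBcel235) were used: IDR, pooled and 3 replicate lists. Which aligner and peak caller were used is not given in the sources used here. Peaks were called against a control by the authors, and the signal value of each peak is as deposited; it was used only to rank and describe peaks within 1 list. The deposited lists also give the −log10 of a q-value, which is 3.12 for all 611 IDR peaks and was not used to rank. The 5 ce10 lists were not used.

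Summits were placed at the deposited offset from each peak's start. Genes, transcripts and introns came from Ensembl release 115 and sequences from the RefSeq genome of the same assembly; python 3.11.15, numpy 2.4.6, pandas 2.3.3 and matplotlib 3.10.9 were used, and the scripts were tested on simulated data. Named genes are the 3 genes, those that hold or lie nearest to their summits, listed chromatin regulators with an IDR summit, and up to 6 others with the most IDR summits. The genes mnk-1, F48C1.3, dot-1.1, and C26C6.12, R10E11.10, drr-2 and rpl-12 beside the listed genes are named for context, after their values were seen. The genes, the list and the words were chosen with earlier results of these data known. The intron length classes, the span of 10 to 20 kb, the shares over all starts, the share with any of 3 words and the overlapping pairs were chosen after seeing the data. With 1 group and members chosen from these lists, no test was made.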

Additional observations from a re-analysis of the deposited data

How the results depend on the processing

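Of 34 alternatives to 9 results, 27 stayed within 1.5 times the reported count and 7 did not. With the 5000 highest peaks of each replicate in place of 611, 8 of the 11 peaks were among them in all 3 replicates, not 4. Counting only transcript starts of the 3 genes, 0 IDR summits were within 250 bp of one and 7 were within 1000 bp, not 2 as within 500 bp. Starts of nested or neighbouring genes were left out of this count. Of the listed chromatin regulators, 4 had an IDR summit with no flank and 2 within 500 bp of the gene start, not 8. Within 50 bp of the summit, CACGTG was at 0 peaks and TGATAA at 1, not 2 and 3. The number of IDR summits was 9 with no flank, 10 with 500 bp and 11 with 5 kb either side, and 8 with peaks at or above the median signal. Leaving out each replicate in turn, 9 to 11 IDR summits recurred in both others, and 4 to 5 were among the highest of both. The causes were not tested. No paired analysis was possible because the lists form 1 group and no result comes from a test.

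The lists hold no read counts, so the error of each signal value is unknown. The 3 replicates share strain and antibody, and no untagged or other control list was used here. Whole worms do not show which cells carry a peak. A summit inside nested genes cannot be assigned to 1 of them.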
